A study of Mus musculus with 12 samples.

Results

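The prohormone processing enzymes were described here as 7 genes, chosen by name because their products turn prohormones into active peptides: Pcsk1, Pcsk2, Furin, Scg5, Pcsk1n, Cpe and Pam. The choice was made with earlier results of these data known. All 7 were found in both tables of expressed genes, which share 23104 genes. The RNA came from hand-picked mouse pancreatic islets, and 4 groups of 3 libraries were compared within each sex. Knockout mice carried floxed Rnf20 on both copies and a tamoxifen-inducible Cre driven by Pdx1, a gene active in beta cells and in part of the delta cells (Rnf20 F/F; Pdx1 Cre ER), and controls were Rnf20 flox mice with no Cre named in their labels. All groups received tamoxifen at 4 weeks of age, as 5 gavages of 150 ug per g of body weight, and the age at islet collection is not given in the sources used here. The knockout is described as enriched in beta cells, so other islet cells remain in every library, and since the labels do not say whether controls carry the Cre, an effect of that transgene cannot be told apart from that of the Rnf20 deletion. The labels do not say whether a library came from 1 animal or from pooled animals, and the p-values measure only the spread between these libraries.

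Peptide hormones are made as long precursors and finished inside secretory granules. The convertases encoded by Pcsk1 and Pcsk2 cut proinsulin, proglucagon and other precursors after paired basic residues. Carboxypeptidase E (Cpe) then trims the basic residues that the cut leaves, and peptidylglycine alpha-amidating monooxygenase (Pam) turns an exposed C-terminal glycine into an amide, as in islet amyloid polypeptide. Scg5 encodes a binding protein that Pcsk2 needs to become active, Pcsk1n encodes proSAAS, an inhibitor of the Pcsk1 convertase, and Furin encodes a relative that cuts proproteins in the trans-Golgi network of most cells. In mouse islets Pcsk1 is best known from beta and delta cells, while Pcsk2 is abundant in alpha cells as well.

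In the knockout islets Pcsk1 and Pam fell in both sexes, while Pcsk2 did not pass the test in either sex. Pcsk1 was 2.61-fold lower in females and 2.44-fold lower in males, and Pam was 1.86-fold lower in females and 2.02-fold lower in males. Pcsk1n and Scg5 passed the test in males alone, where they were 1.76-fold and 1.43-fold lower. No member rose past the threshold in either sex. A gene counted as called when its p from limma, adjusted after Benjamini and Hochberg over every gene tested in that sex, was below 0.05. The count of members called lower was 2 of 7 in females, where 10.7% of all 18142 tested genes were called lower, and 4 of 7 in males, where 7.09% of 18010 were. Abundant genes were called more often: among tested genes with a mean of at least 3000 normalized counts, a level that all members reached, 19.9% were called lower in females and 17.0% in males. The count of members called higher was 0 of 7 in each sex, against 9.9% and 6.08% of all tested genes, and at an unadjusted p below 0.05 in limma Furin alone was higher, in females (p 0.0208). Pcsk1 and Pam were called lower in both sexes, as were 4.81% of the 17330 genes tested in both.

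**Figure D1:**
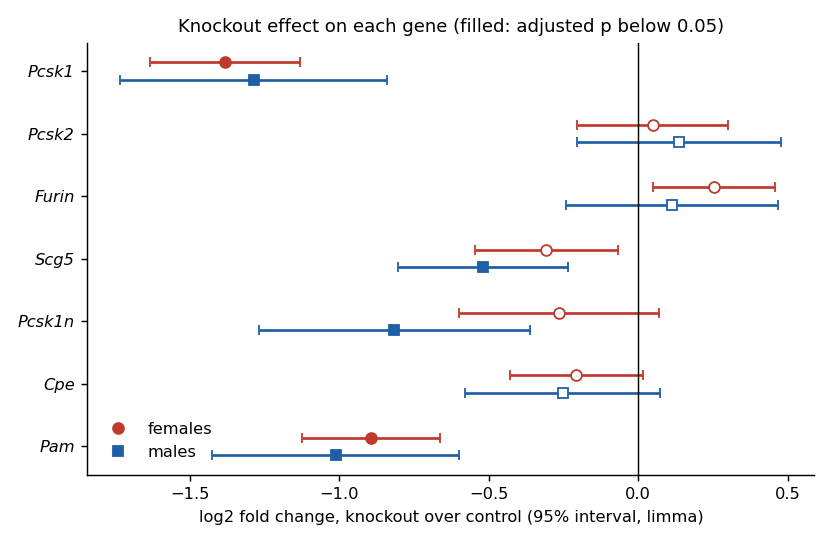
Knockout effect on each of the 7 members (log2 fold change of normalized counts, knockout over control, on the horizontal axis) with its 95% confidence interval, for females (circles) and males (squares), 3 libraries per group. Filled symbols have an adjusted p below 0.05 (limma): Pcsk1 and Pam in both sexes, Pcsk1n and Scg5 in males.

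The libraries held 19759712 to 56086810 reads assigned to genes, and the members held from 1974 reads (Furin) to 249990 reads (Cpe) per library. Male control 2 stood apart: it was the shallowest library, and 17701 genes had reads in it, against 22287 to 24269 in the other 11 libraries. The male results of the members are therefore also given without it. Rnf20, the targeted gene, which encodes a ubiquitin ligase for histone H2B, stood at 3589 to 4340 normalized counts in female controls, against 1877 to 2000 in female knockouts, and at 3409 to 4058 in male controls, against 1373 to 1519 in male knockouts. It was 2.05-fold lower in females (adjusted p 6.35e-04) and 2.60-fold lower in males (adjusted p 7.91e-04), in whole islets that hold cells without the Cre. The beta cell markers Ins1, Ins2 and Iapp, the alpha cell marker Gcg and the delta cell marker Sst were present in every library, as the label of pancreatic islets says.

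The sequences in front of Pcsk1, Pcsk2 and Pam are shown because the first and the last of these genes fell while Pcsk2 did not pass the test. Each line holds the 250 bases before the start of the gene in RefSeq, read 5′ to 3′ on the strand of the gene, and capitals mark the cyclic AMP response element TGACGTCA or its core TGACG on either strand. Both strands were searched for every motif.
Pcsk1 (chr13:75089607-75089856, plus strand, GRCm38.p6): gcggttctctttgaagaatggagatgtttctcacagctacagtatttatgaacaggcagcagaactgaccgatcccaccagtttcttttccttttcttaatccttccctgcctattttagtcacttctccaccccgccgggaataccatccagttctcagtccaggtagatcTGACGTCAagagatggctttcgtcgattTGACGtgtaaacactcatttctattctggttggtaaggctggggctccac
Pcsk2 (chr2:143545883-143546132, plus strand, GRCm38.p6): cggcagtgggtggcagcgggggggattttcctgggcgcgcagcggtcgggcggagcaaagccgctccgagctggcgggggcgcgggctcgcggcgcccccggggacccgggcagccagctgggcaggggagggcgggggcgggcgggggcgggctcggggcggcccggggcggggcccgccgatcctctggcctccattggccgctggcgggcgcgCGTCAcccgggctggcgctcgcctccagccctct
Pam (chr1:98095647-98095896, minus strand, GRCm38.p6, start 1 of 2 listed): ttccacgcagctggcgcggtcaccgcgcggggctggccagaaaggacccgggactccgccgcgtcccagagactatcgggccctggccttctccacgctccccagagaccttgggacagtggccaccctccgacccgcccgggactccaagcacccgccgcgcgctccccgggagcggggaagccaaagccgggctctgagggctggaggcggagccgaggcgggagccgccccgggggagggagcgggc
The Pcsk1 promoter held 1 full element, which starts 78 bases before the gene and contains the core on both strands, and 1 further core 50 bases before it. The Pcsk2 promoter held 1 core, on the opposite strand, and the Pam promoter held neither. The full element occurred in 1.55% of the 32851 promoters of the same length in the RefSeq table, and the core in 17.8%. The base composition differed too, with 46.8% G or C in the Pcsk1 promoter, 82.4% in that of Pcsk2 and 75.6% in that of Pam. The Pcsk1 promoter had 1 TAAT, the core that homeodomain factors bind, and the others had none, while 54.9% of all promoters hold it. The E-box CANNTG was found once each before Pcsk2 and Pam, not in the Pcsk1 window, and in 66.2% of all promoters. These are matches of letters and say nothing about which factor binds there.

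Pcsk1 (ENSMUSG00000021587, chromosome 13, 75237945 to 75282980, plus strand of GRCm39) is the convertase that opens proinsulin at the junction of the B chain and C-peptide. In females it stood at 46238, 53670 and 54200 normalized counts in controls 1, 2 and 3, against 17858, 19932 and 21357 in knockouts 1, 2 and 3. Every female knockout lay below every female control, and the highest knockout held less than the lowest control by more than the spread within either group. In males Pcsk1 stood at 29091, 52376 and 37729 normalized counts in the controls, against 14986, 15261 and 17305 in the knockouts. The male groups did not overlap either, and the male controls spread more widely than any other group, with the shallow control 2 at the top. The log2 fold change was -1.38 ± 0.11 (SE, adjusted p 3.95e-04) in females and -1.29 ± 0.20 (SE, adjusted p 0.00443) in males, n = 3 per group. Among tested genes, 2.02% in females and 4.75% in males had a lower log2 fold change. Without male control 2 the male log2 fold change was -1.07 (adjusted p 0.00745). Whole-islet RNA does not tell fewer cells of a type from less RNA per cell, and this holds for each result here.

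Pcsk2 (ENSMUSG00000027419, chromosome 2, 143388076 to 143658205, plus strand) encodes the second granule convertase, which cuts proinsulin at the other end of the C-peptide and releases glucagon from proglucagon. In females it stood at 105716, 87658 and 93121 normalized counts in controls, against 92213, 106083 and 97634 in knockouts. In males the controls held 79220, 81861 and 91194 and the knockouts 85045, 83392 and 110969. The groups overlapped in both sexes, and the highest male value came from knockout 3. On the log2 scale the difference was 0.05 in females (95% interval -0.20 to 0.30, adjusted p 0.799) and 0.14 in males (-0.20 to 0.48, adjusted p 0.591), so a fall as large as that of Pcsk1 lies outside both intervals. Without male control 2 the male value was 0.12 (adjusted p 0.722). A pair of antisense RNAs, Pcsk2os1 and Pcsk2os2, overlap the gene on the opposite strand at means of 189 to 286 normalized counts, and the strand setting of the counting is not stated.

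**Figure D2:**
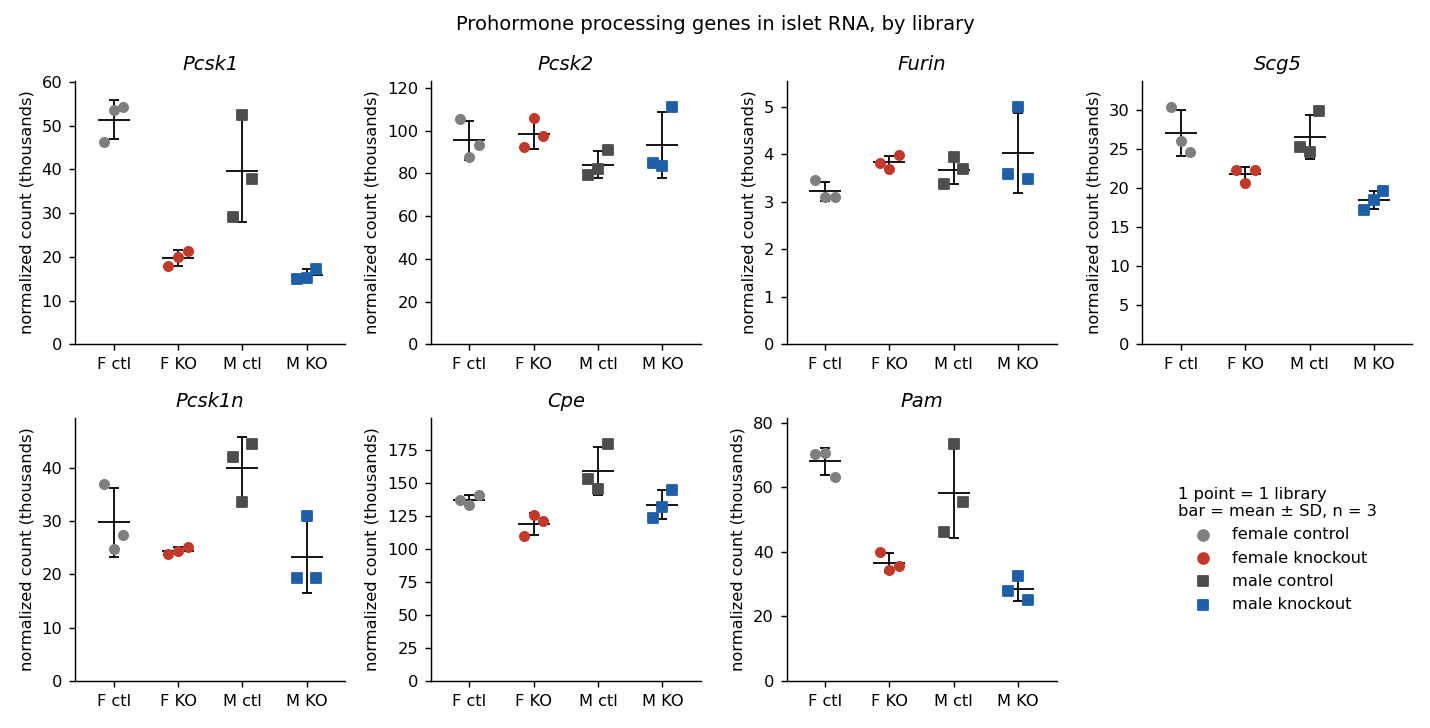
Normalized counts (vertical axis, linear from 0, each gene on its own scale) of the 7 members in each of the 12 libraries, by group (F, female; M, male; ctl, control; KO, knockout), with the mean and SD of 3 libraries. The knockout points of Pcsk1 and Pam lie below all control points of the same sex, and those of Pcsk2 lie among them.

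Because both convertases act on the same precursors, their reads were set against each other within each library, as a description with no test. There were 0.437, 0.612 and 0.582 Pcsk1 reads per Pcsk2 read in female controls, against 0.194, 0.188 and 0.219 in female knockouts. Male controls held 0.367, 0.640 and 0.414 and male knockouts 0.176, 0.183 and 0.156. The ratio does not depend on how libraries are scaled, and in both sexes every knockout lay below every control. The mean ratio went from 0.544 ± 0.093 (SD, n = 3) to 0.200 ± 0.016 in females and from 0.474 ± 0.146 to 0.172 ± 0.014 in males.

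Furin (ENSMUSG00000030530, chromosome 7, 80038333 to 80055184, minus strand) works before the granule, in the trans-Golgi network, and was the least abundant member. In females it stood at 3454, 3098 and 3090 normalized counts in controls, against 3818, 3694 and 3974 in knockouts. In males it stood at 3360, 3940 and 3690 in controls, against 3574, 4983 and 3481 in knockouts. All female knockouts lay above all female controls, and the male groups overlapped, with knockout 2 alone above every control. On the log2 scale the knockouts differed by 0.25 in females (95% interval 0.05 to 0.46, adjusted p 0.0808) and 0.11 in males (-0.24 to 0.47, adjusted p 0.672), and 0.17 in males without control 2. Neither passed the threshold. DESeq2 on the recovered reads did call Furin higher in females (log2 0.26, adjusted p 0.0379). The female call also appears without female control 1 (log2 0.31, adjusted p 0.0358), while the male value changes sign without knockout 2 (-0.05).

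Scg5 (ENSMUSG00000023236, chromosome 2, 113606707 to 113659466, minus strand) is the partner that keeps the Pcsk2 precursor soluble until it matures. In females it stood at 30342, 26069 and 24648 normalized counts in controls, against 22330, 20665 and 22337 in knockouts. In males the controls held 25245, 24575 and 29818 and the knockouts 17245, 18534 and 19652. No knockout reached the lowest control in either sex. The log2 fold change was -0.31 ± 0.10 in females (adjusted p 0.0746) and -0.52 ± 0.13 in males (adjusted p 0.0271), and -0.57 in males without control 2 (adjusted p 0.0367). The male call is lost without control 3 (adjusted p 0.105), knockout 1 (0.141) or knockout 2 (0.0560), with edgeR (0.0540), with quantile scaling (-0.35, adjusted p 0.144) and for equal read totals (-0.39, adjusted p 0.0668), while in females DESeq2 (0.0338) and the fit without control 3 (0.0480) make the call. In the authors' deposited table the adjusted p of Scg5 was 0.0436 in females and 0.00124 in males.

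Scg5 reads per Pcsk2 read were 0.287, 0.297 and 0.265 in female controls, against 0.242, 0.195 and 0.229 in female knockouts. They were 0.319, 0.300 and 0.327 in male controls, against 0.203, 0.222 and 0.177 in male knockouts. There was less Scg5 per Pcsk2 in every knockout than in any control of its sex, with no test made.

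Pcsk1n (ENSMUSG00000039278, X chromosome, 7786061 to 7790649, plus strand), the inhibitor of the Pcsk1 convertase, stood at 36946, 24719 and 27434 normalized counts in female controls, against 23730, 24301 and 25052 in female knockouts. In males it stood at 42028, 33480 and 44399 in controls, against 19217, 30929 and 19287 in knockouts. The female groups overlapped, since control 2 lay within the knockouts and control 1 stood well above the rest. The male groups did not overlap, and knockout 2 came close to control 2. The fitted log2 difference was -0.26 ± 0.15 in females (adjusted p 0.248) and -0.82 ± 0.20 in males (adjusted p 0.0290), and -0.94 in males without control 2 (adjusted p 0.0322). The male call is lost without control 1 (adjusted p 0.0659), control 3 (0.0934), knockout 1 (0.127) or knockout 3 (0.0829), with edgeR (0.0566), with quantile scaling (-0.57, adjusted p 0.134) and with the replicate number as a block (0.0532). In the authors' deposited table the adjusted p of Pcsk1n was 0.00261 in males.

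Female control 1, the female library with the most Pcsk1n, also had the highest share of reads from acinar markers, at 4.61%, while the other female libraries held 1.41% to 4.01%. Female control 3, at 4.01%, held 27434 normalized counts of Pcsk1n. Male control 3, the male library with the most Pcsk1n, had the lowest male share, at 0.422%. With the acinar level as a covariate the Pcsk1n value was 0.06 (adjusted p 0.873) in females and -0.83 (adjusted p 0.0328) in males. The part of acinar tissue in the level of Pcsk1n was not tested further. Against the convertase that it inhibits, Pcsk1n reads per Pcsk1 read were 0.799, 0.461 and 0.506 in female controls, against 1.33, 1.22 and 1.17 in female knockouts. In males the ratios were 1.44, 0.639 and 1.18 in controls and 1.28, 2.03 and 1.11 in knockouts. The female groups were apart, with more inhibitor reads per convertase read in the knockouts, and the male groups overlapped.

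**Figure D3:**
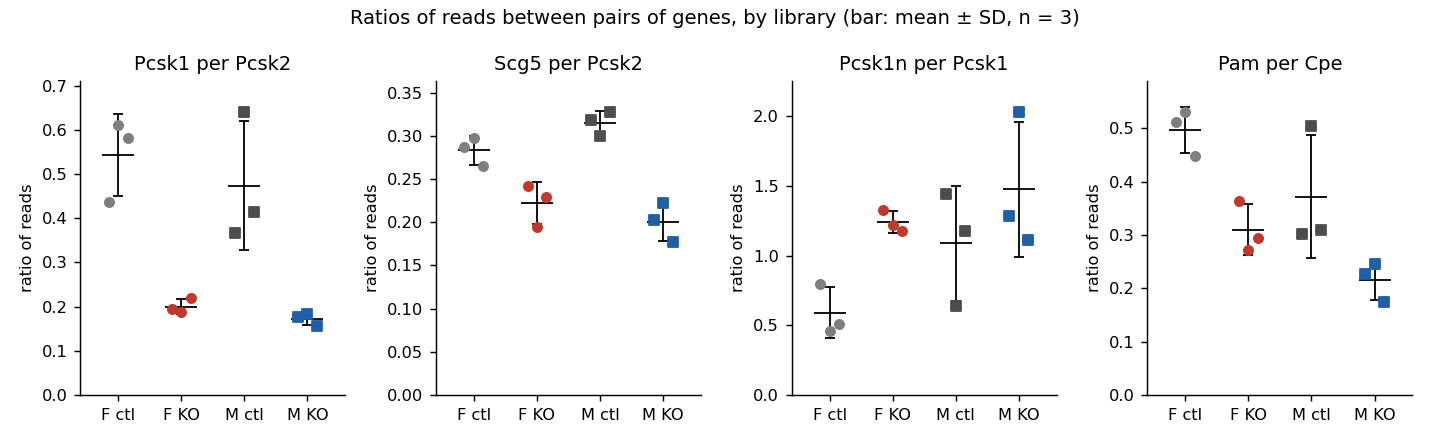
Reads of a gene divided by reads of its partner in the same library (vertical axis, linear from 0) for Pcsk1 per Pcsk2, Scg5 per Pcsk2, Pcsk1n per Pcsk1 and Pam per Cpe, by group, with the mean and SD of 3 libraries. Groups are apart in both sexes except for Pcsk1n per Pcsk1 in males.

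Cpe (ENSMUSG00000037852, chromosome 8, 65045576 to 65146088, minus strand), the carboxypeptidase that removes basic residues after the convertases have cut, was the most abundant member. In females it stood at 137107, 133024 and 141080 normalized counts in controls, against 109915, 125829 and 121065 in knockouts. In males it stood at 152588, 145264 and 179400 in controls, against 123049, 131988 and 144845 in knockouts. The groups were apart in both sexes, by a margin in males that is small beside the spread within the groups. The log2 fold change was -0.21 (95% interval -0.43 to 0.02, adjusted p 0.176) in females and -0.25 (-0.58 to 0.07, adjusted p 0.291) in males, and -0.32 in males without control 2. Neither passed the test, and scaled to equal read totals (RPM) the female groups were level (log2 0.00).

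Pam (ENSMUSG00000026335, chromosome 1, 97722839 to 98023371, minus strand) carries out the last step, amidation, and does so with copper and ascorbate. In females it stood at 70233, 70476 and 63230 normalized counts in controls, against 39998, 34269 and 35578 in knockouts. In males it stood at 45977, 73360 and 55514 in controls, against 27850, 32520 and 25189 in knockouts. No knockout reached the level of any control of its sex. As with Pcsk1, control 2 was the highest and control 1 the lowest of the male controls. The log2 fold change was -0.89 ± 0.10 (SE, adjusted p 0.00123) in females and -1.01 ± 0.18 (SE, adjusted p 0.00809) in males, n = 3 per group, with 5.86% and 7.50% of tested genes lower. Without male control 2 the male value was -0.83 (adjusted p 0.0180). The transcripts B230216N24Rik (means of 553 and 287 normalized counts in females and males), Btf3-ps1 (71.4 and 40.6) and Gm37140 (9.33 and 11.2) lie within the gene on the same strand, and reads shared with them are uncertain.

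Pam reads per Cpe read, which set the amidating enzyme against the trimming enzyme before it in the pathway, were 0.512, 0.530 and 0.448 in female controls, against 0.364, 0.272 and 0.294 in female knockouts. They were 0.301, 0.505 and 0.309 in male controls, against 0.226, 0.246 and 0.174 in male knockouts. The groups did not overlap in either sex, and no test was made. Over the 7 members the groups were apart with the knockouts lower for 4 in females, where 20.3% of tested genes were, and for 5 in males, where 16.9% were. They were apart with the knockouts higher for 1 member in females and 0 in males, against 19.0% and 18.6% of tested genes. The median log2 fold change of the members was -0.26 in females and -0.52 in males, beside -0.01 and 0.06 over all tested genes. Together the 7 members held 0.991% to 1.03% of reads in female controls, against 0.894% to 0.940% in female knockouts, and 0.943% to 1.10% in male controls, against 0.819% to 0.938% in male knockouts.

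The question whether the sexes differed was tested with an interaction term for sex by genotype in a fit of the 12 libraries. No member was called, and none had an unadjusted p below 0.05 in limma, while 0.11% of 17330 genes were called after adjustment and 8.13% had an unadjusted p below 0.05. The difference farthest from 0 was that of Pcsk1n, with the male log2 fold change lower by 0.55 (male minus female -0.55, 95% interval -1.15 to 0.04, p 0.0670, adjusted p 0.649). For Pcsk1 the difference was 0.09 (-0.44 to 0.63, adjusted p 0.926) and for Pam -0.12 (-0.60 to 0.36, adjusted p 0.893). The intervals are wide, so that Pcsk1n and Scg5 passing the threshold in males alone does not show that the sexes differ. No member was called for a sex difference by edgeR or DESeq2 either.

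Levels between genes were compared as RPKM (reads per kilobase of exon, scaled to an equal total of 1000000 assigned reads), with exon lengths from a reference annotation of the earlier build GRCm38. In female controls the mean RPKM was 1295 for Cpe, 423 for Scg5, 331 for Pcsk1n, 296 for Pcsk2, 227 for Pcsk1, 141 for Pam and 8.61 for Furin. Pcsk1n (290 to 388) and Pcsk2 (285 to 308) overlapped, and the other neighbours in that order did not. In female knockouts Pcsk2 stood at 354 and overlapped with Scg5 at 395 but not with Pcsk1n at 316, while Pcsk1 was at 100.1 and Pam at 87.7.

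In male controls the mean RPKM was 1527 for Cpe, 456 for Pcsk1n, 424 for Scg5, 266 for Pcsk2, 178 for Pcsk1, 123 for Pam and 9.14 to 10.9 for Furin over the 3 libraries. Pcsk1n overlapped with Scg5 there, and Pcsk1 with Pam. In male knockouts Pcsk2 (281.5 to 386), Scg5 (310 to 345) and Pcsk1n (242 to 377) all overlapped, and the ranges of Pcsk1 (mean 77.7) and Pam (65.8) touched. Pcsk1 thus stayed in its place in the order of the means, below Pcsk2 and above Pam, in all 4 groups.

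The precursors on which these enzymes act were a list of 15 genes, all tested, of which 6 were called lower and 1 higher in females, and 6 lower and 0 higher in males. Their median log2 fold change was -1.07 in females and -0.86 in males. Beside this list and every later one, markers included, stand the shares over all tested genes. These were 10.7% lower and 9.9% higher in females, and 7.09% lower and 6.08% higher in males. Ins1, the insulin gene that mice and rats have besides Ins2, fell in females (log2 -1.07, adjusted p 0.00534) and in males (log2 -2.12, adjusted p 0.00179), while Ins2 stood at -0.37 (adjusted p 0.166) and -0.22 (adjusted p 0.565). Iapp, the amyloid precursor that Pam amidates, fell as well (log2 -1.48, adjusted p 7.84e-04, and -1.89, adjusted p 0.00197). Sst, the somatostatin precursor of delta cells, fell in females (log2 -1.32, adjusted p 4.67e-04) and males (-1.29, adjusted p 0.00602). Gcg, the glucagon precursor, was at -0.18 (adjusted p 0.764) and 0.01 (adjusted p 0.976), and the sign of each changes with the scaling or the test. Among neuropeptide precursors, Vip fell (log2 -3.00, adjusted p 3.95e-04, and -3.17, adjusted p 0.00627), and Npy fell too (-1.84, adjusted p 0.0330, and -1.72, adjusted p 0.0142). Cck stood at 24.9 to 31.6 normalized counts in female controls, against 99.6 to 238 in female knockouts, and rose in females (log2 2.33, adjusted p 0.00280). In males Cck was 16.8-fold higher in the fit and was not called. The male count of precursors called higher was 2 with DESeq2 and without control 1. It was 1 with quantile scaling, a pseudocount of 10, no low-value filter, RPM or a fit of all 12 libraries, and without knockout 3. Npy held its female call in 2 of 6 fits with a library left out, and with quantile scaling Sst in males was not called (adjusted p 0.0655). For Ins1 in females quantile scaling left no difference (log2 -3.8e-15). It gives genes of equal rank the same value in every library, so it could not test the female fall of Ins1. With the acinar level as a covariate the female calls of Ins1 (-0.89, adjusted p 0.105), Npy (-1.95, adjusted p 0.193) and Cck (1.91, adjusted p 0.0636) were lost, and Cck was not called in a fit of all 12 libraries (adjusted p 0.116).

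Set against insulin reads, Pcsk1 and Pcsk2 lay on opposite sides of the controls. Female controls held 6.72, 10.3 and 12.4 Pcsk1 reads per 1000 reads of Ins1 plus Ins2, and female knockouts held 4.90, 5.13 and 5.82. Male controls held 5.06, 8.63 and 4.89 and male knockouts 4.25, 2.71 and 4.01. For Pcsk2 the same ratio was 15.4, 16.9 and 21.3 in female controls, against 25.3, 27.3 and 26.6 in female knockouts, and 13.8, 13.5 and 11.8 in male controls, against 24.1, 14.8 and 25.7 in male knockouts. Pcsk1 per insulin read was thus lower and Pcsk2 per insulin read higher in every knockout than in any control of its sex. Furin per insulin read was also higher in the knockouts of both sexes, with means of 0.601 and 1.03 in females and 0.571 and 0.902 in males. No test was made on these ratios. The insulin reads enter each of them: Ins1 was called lower in both sexes, while Pcsk2 and Furin were not called in either. For Cpe, Scg5 and Pam the same ratio overlapped between the groups in both sexes. That of Pcsk1n overlapped in females and was lower in every male knockout than in any male control.

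Of the other proprotein convertases, 3 of 6 rose in females and 2 of 6 in males, and 0 fell in either sex (medians 0.19 and 0.37). Pcsk6, a secreted relative of Furin, stood at 592 to 654 normalized counts in female controls, against 2025 to 2966 in female knockouts, and at 665 to 865 and 2068 to 2926 in males. The groups lay far apart, and the log2 fold change was 1.93 ± 0.15 (adjusted p 3.95e-04) in females and 1.71 ± 0.17 (adjusted p 0.00117) in males. Per length Pcsk6 went from 2.91 to 13.0 RPKM in females and from 3.67 to 13.3 in males, which in both knockouts overlaps the level of Furin (11.2 to 12.4 and 10.4 to 14.5) and well below Pcsk1. Pcsk4, known from germ cells, rose in females (log2 1.35, adjusted p 6.43e-04) and did not pass in males (0.43, adjusted p 0.515), where the controls ran from 427 to 1475, and the sex difference was not called (adjusted p 0.652). Mbtps1, which cuts membrane-bound transcription factors in the Golgi, rose by log2 0.40 (adjusted p 0.0207) and 0.56 (adjusted p 0.0165). The Mbtps1 call is held in 2 of 6 fits with a library left out in females and 4 of 6 in males, so that the male count of the list falls to 1 without male control 1 or knockout 1.

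Among 7 tested genes for other peptide-trimming enzymes, 2 were called lower and 1 higher in females, and 0 lower and 1 higher in males (medians -0.24 and -0.39). Cpd, a membrane carboxypeptidase of the Golgi with the same specificity as Cpe, stood at 5300 to 7443 normalized counts in female controls, against 11126 to 11693 in female knockouts, and at 5468 to 5946 and 12180 to 14683 in males. It rose by log2 0.85 (adjusted p 0.00346) in females and 1.25 (adjusted p 8.88e-04) in males. Per length Cpd was at 18.9 and 38.8 RPKM in female controls and knockouts and at 17.0 and 44.7 in the male groups, all far below Cpe. In females the aminopeptidase Rnpep (log2 -0.50, adjusted p 0.0148) and the lysosomal protease Ctsb (log2 -0.53, adjusted p 0.0199) fell. Each was called in 3 of 6 fits with a library left out. In males they stood at -0.45 (adjusted p 0.174) and -0.39 (adjusted p 0.127). The female count called lower is 0 without knockout 2 or knockout 3 and 1 without control 2 or knockout 1. The count called higher stays at 1 in all 6 fits. The female count called lower is also 0 with libraries scaled to equal read totals, and 1 with quantile scaling or a fit of all 12 libraries. In males Ctsl (-0.46, adjusted p 0.0520) and Cpm (-0.67, adjusted p 0.0633) lay just above the threshold. The male count called lower is 2 with DESeq2 or a fit of all 12 libraries. It is 1 with a pseudocount of 10, no low-value filter, the acinar covariate or a replicate block, and without knockout 2 or knockout 3.

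The genes that bring copper and ascorbate to Pam were 4, of which 3 were called lower in females and 1 in males, with none higher (medians -0.76 and -0.27). Cyb561, a granule cytochrome that passes electrons to ascorbate, stood at 4066 to 4923 normalized counts in female controls, against 1763 to 2446 in female knockouts, and at 4101 to 4415 and 1731 to 1930 in males. It fell in females (log2 -1.01, adjusted p 0.00310) and males (-1.24, adjusted p 8.23e-04), against -0.89 and -1.01 for Pam. The copper pump Atp7a (log2 -1.38, adjusted p 0.0289) and the copper importer Slc31a1 (-0.52, adjusted p 0.0140) fell in females, and stood at 0.35 (adjusted p 0.447) and -0.28 (adjusted p 0.201) in males. The interaction did not call a sex difference for either (male minus female 1.73, adjusted p 0.284, and 0.24, adjusted p 0.734), which does not show that the sexes were alike. With a library left out, the female call of Atp7a held in 2 of 6 fits and that of Slc31a1 in 4 of 6. The female controls of Atp7a ran from 599 to 1640 normalized counts. Without female control 2 or female knockout 2, and with libraries scaled to equal read totals, the count called lower in females was 1.

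Granule acidification, on which the convertases depend, was followed with 20 genes of the proton pump and a chloride exchanger. Of these, 3 were called lower and 1 higher in females, and 2 lower and 0 higher in males (medians -0.11 and -0.12). Over all tested genes 10.7% were lower and 9.9% higher in females, and 7.09% and 6.08% in males. Among genes with a mean of at least 3000 normalized counts, 19.9% were lower in females and 17.0% in males. Atp6ap2, an accessory subunit, stood at 16198 to 18519 normalized counts in female controls, against 9591 to 11185 in female knockouts, and fell in females (log2 -0.75, adjusted p 0.00219) and males (-0.71, adjusted p 0.00692). The neuronal subunit Atp6v1g2 fell in both sexes (log2 -1.18, adjusted p 0.00220, and -1.57, adjusted p 0.0158), from low counts of 265 to 278 in female controls. Atp6v0a2 fell in females (-0.30, adjusted p 0.0463) and held its call in 1 of 6 fits with a library left out. Atp6v0a4, a kidney subunit, stood at 7.37 to 13.4 normalized counts in female controls, against 49.2 to 60.0 in female knockouts. It rose in females (2.27, adjusted p 0.00256). In males Atp6v0a2 was 1.14-fold lower and Atp6v0a4 8.47-fold higher in the fit, and neither was called. The male count called lower is 1 without control 3 or knockout 1. The number called higher depends on the scaling, with 3 in females and 1 in males for equal read totals and 2 and 1 for quantile scaling, and 0 in females in a fit of all 12 libraries.

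Granins are the bulk proteins of the granule, and several are themselves cut by the convertases. Of 5, 3 were called lower in females and 2 in males, with 0 higher (medians -0.67 and -0.87). Scg3 stood at 75437 to 114039 normalized counts in female controls, against 33290 to 39095 in female knockouts, and fell in both sexes (log2 -1.38, adjusted p 0.00118, and -1.13, adjusted p 0.00357). Vgf fell in females (log2 -0.67, adjusted p 0.0299) and males (-1.66, adjusted p 0.00436), and Scg2 in females (-0.91, adjusted p 0.0391), with -0.87 (adjusted p 0.0597) in males. Vgf and Scg2 each held their female call in 1 of 6 fits with a library left out, and the female count is 1 without control 1, control 2, knockout 1 or knockout 2. With libraries scaled to equal read totals 1 granin was called lower in females, and with quantile scaling 1 was lower and 1 higher, where Scg3 was not called (-0.85, adjusted p 0.0643). With the acinar level as a covariate the female count is 1 for granins and 0 for the copper and trimming lists, while Pcsk1 (-1.42, adjusted p 0.0105) and Pam (-0.98, adjusted p 0.0222) remained called.

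Without the shallow male control 2, the male calls of Ins1, Iapp, Sst, Vip, Pcsk6, Mbtps1, Cpd, Cyb561, Atp6ap2, Atp6v1g2, Scg3 and Vgf were all kept, with adjusted p up to 0.0376 (Mbtps1). The male counts then became 8 lower for the precursors and 3 lower for acidification, and those of the other lists were as given.

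**Figure D4:**
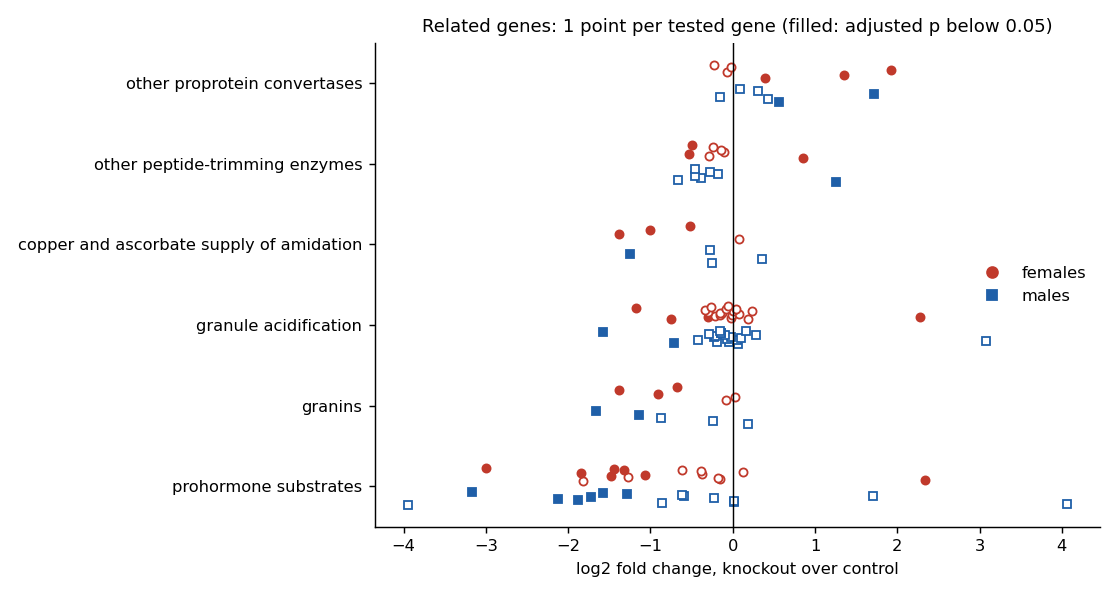
Knockout effect (log2 fold change, horizontal axis) of each tested gene in 6 lists of genes that work beside the members, females as circles and males as squares, filled where the adjusted p was below 0.05 (limma). Filled points of the other convertases lie to the right of 0, and those of the granins to the left.

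Most markers of beta and delta cells were called lower, as were Pcsk1 and Pam, while Pcsk2, Cpe and Furin were not called in either sex. Of 9 beta cell markers, 7 were called lower and 1, Nkx6-1, higher in females, and 5 lower and Nkx6-1 higher in males. Their summed share of reads was 13.0% to 18.4% in female controls, against 11.4% to 11.8% in female knockouts, and 16.4% to 21.2% and 10.5% to 15.5% in males. Of 4 delta markers, 3 were called lower in each sex, at 0.184% to 0.211% and 0.0909% to 0.104% of reads in females, and 0.150% to 0.222% and 0.0679% to 0.105% in males. Of 8 alpha markers, 0 were called lower and 1 higher in each sex, at 1.36% to 3.52% and 1.80% to 2.38% in females and 1.29% to 2.32% and 1.81% to 1.96% in males. No beta, alpha or delta marker was at 0 in any library. Acinar markers, of which at most 2 of 14 were at 0 in a library, held 1.83% to 4.61% of reads in female controls, 1.41% to 2.03% in female knockouts, 0.422% to 6.26% in male controls and 0.992% to 4.95% in male knockouts. Of 6 endothelial markers 3 were called higher in males, at 0.0428% to 0.0503% and 0.0672% to 0.0791% of reads. The part of these shifts in the levels of Pcsk1, Pam, Pcsk1n and Scg5 was not tested.

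The direction of smaller effects depends on the scaling. In RPM (reads scaled to the same total of assigned reads per library), a scaling added after the data had been seen, the median of all tested genes moved from -0.01 to 0.20 in females and from 0.06 to 0.19 in males, and 3575 genes were called higher and 1012 lower in females, against 1796 and 1949 with the deposited scaling. In males the split was 1772 to 921, against 1095 to 1277. Under it Pcsk1 was at -1.17 (adjusted p 0.00129) and -1.15 (adjusted p 0.00715) and Pam at -0.69 (adjusted p 0.00421) and -0.88 (adjusted p 0.0138) in females and males, all still called. Relative to the shifted median these are -1.37 and -1.35 for Pcsk1 and -0.88 and -1.07 for Pam. Furin was called higher in females (0.46, adjusted p 0.00796), which is 0.26 above the median, and Pcsk2 was at 0.26 (adjusted p 0.0753), which is 0.06 above it. With quantile scaling Pam was not called in females (-0.34, adjusted p 0.165) or males (-0.75, adjusted p 0.0537), and Pcsk2 was called higher in females (0.53, adjusted p 0.0166). Pcsk1 kept its call in both sexes under all 9 other settings and in each of 6 fits per sex with a library left out.

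**Figure D5:**
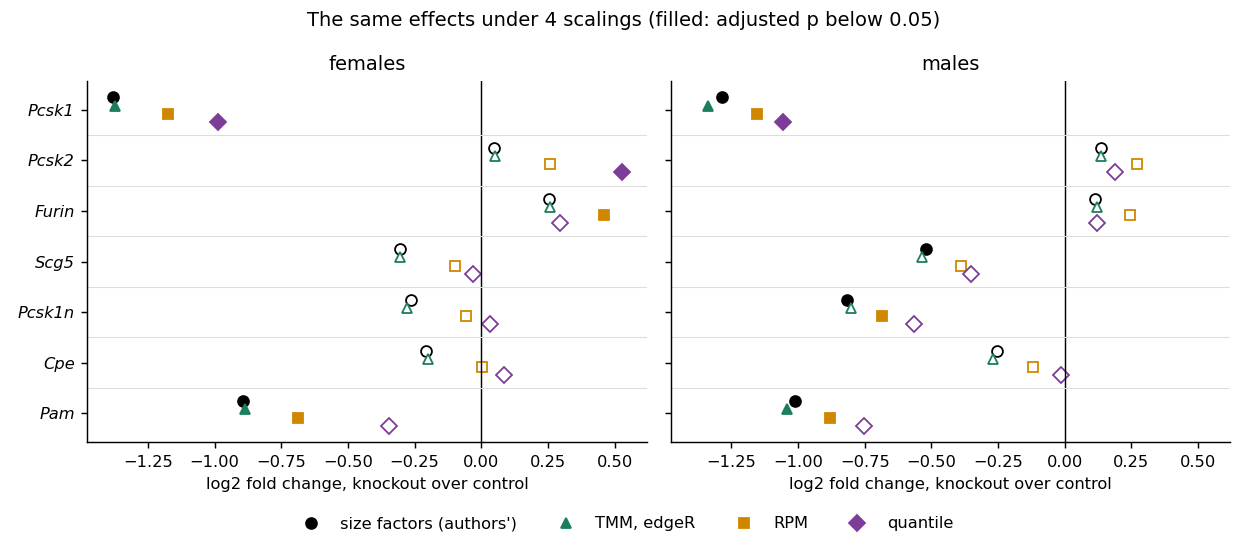
Knockout effect on each member (log2 fold change, horizontal axis) in females and males with the authors' size factors, with edgeR's TMM factors, in RPM and with quantile scaling. Filled symbols have an adjusted p below 0.05; the Pcsk1 symbols are filled under each of the 4, and Pcsk2, Cpe and Pcsk1n in females shift to the right with the last pair.

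Genes with the most similar pattern were looked up among 12162 genes with a mean of at least 100 normalized counts in both sexes, by Pearson's r over 12 libraries of log2 values centred within each sex, as a description without p. The difference between the genotypes enters this r, so the r of deviations from the group means is given in brackets. The genes were picked by the first r, which holds these deviations too, so the r in brackets is no independent check. Closest to Pcsk1 were Car10 at 0.991 (0.911), Slc38a4 at 0.991 (0.945) and Trim39 at 0.991 (0.913). Closest to Pam were Gm38070 at 0.991 (0.926), Sec23b at 0.986 (0.870) and Stk32a at 0.985 (0.876). For Scg5 they were Kcnip1 at 0.985 (0.930), Blvra at 0.972 (0.866) and Sars at 0.970 (0.854), and for Pcsk1n they were Rsph3b at 0.975 (0.944), Leng1 at 0.973 (0.941) and Copz2 at 0.965 (0.911). For Cpe they were Hook2 at 0.957 (0.888), Sfxn1 at 0.939 (0.901) and Tm4sf4 at 0.931 (0.821). For Pcsk2 the closest were Ube2e1 at 0.902 (0.892), Ttc5 at 0.885 (0.905) and Txnrd2 at 0.881 (0.870). For Furin they were Tmem259 at 0.929 (0.893), Itgb5 at 0.919 (0.887) and Lpcat4 at 0.911 (0.944). The neighbours of Pcsk2 and Furin had a lower r over 12 libraries than those of the other members, but their r in brackets lay in the same range. Among the members themselves the r over 12 libraries was highest for Pcsk1 and Pam, at 0.953 (0.562), while within groups it was highest for Pcsk2 and Cpe, at 0.730.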

How the data were processed

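Groups and replicate numbers of the 12 libraries came from the labels. Per the submitters' processing notes, FastQC 0.11.9, Trim Galore 0.6.7, STAR 2.7.3a, featureCounts and the build GRCm39 (mm39) were used; the annotation release, the strand setting and the handling of multi-mapping reads are not given in the sources used here. The deposited signal values were read counts divided by the authors' size factor per library, scaled within each sex. The deposited log2 fold changes and adjusted p-values were the authors' DESeq2 output, as was a score (the Wald statistic), which was not used. In the authors' deposited table Pcsk1 had log2 -1.38 in females and -1.33 in males (adjusted p 2.99e-26 and 1.87e-08).

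After removal of 79 and 73 repeated entries 24631 female and 24474 male genes were left. Whole reads were recovered for 100% of values (tolerance 0.001). The main test was limma-trend (limma 3.58.1, R 4.3.3; robust) on log2(normalized count + 1), per sex, for genes with a mean of at least 10, with Benjamini-Hochberg adjustment over all of them. Fold changes are on that scale. Sex differences used an interaction over 12 libraries. Alternatives were edgeR 4.0.16 and DESeq2 1.42.0 on recovered reads, quantile scaling, a pseudocount of 10, no filter, an acinar covariate, a replicate block, 1 fit of all libraries, left-out libraries and RPM. The fit was tested on simulated data. Replicates spread more than counting error, which the reads behind each member keep small.

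The members and lists were chosen with earlier results of these data known. Besides the members and the main prohormones, the text names per list and sex up to 3 called genes in each direction with the largest change and no overlap, and 3 most similar genes per member. Promoters came from RefSeq (GRCm38.p6), which gave 6 of 7 members; Cpe is named only. Exon lengths came from a GRCm38 annotation, and coordinates of genes from the tables (GRCm39).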

Additional observations from a re-analysis of the deposited data

How the results depend on the processing

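Over the 7 members in both sexes, 182 of 210 alternative values kept their direction and their side of the threshold. With edgeR 2 members were called in males, Pcsk1n (-0.80) and Scg5 (-0.54) being lost, and with DESeq2 4 were called in females, Scg5 (-0.30) and Furin (0.26) being added. Quantile scaling gave Pcsk2 0.53, Pcsk1n 0.032, Cpe 0.085 and Pam -0.34 in females, and Pcsk1n -0.57, Pam -0.75 and Scg5 -0.35 in males with 1 member called; the sex difference was -0.069 for Pcsk1 and -0.34 for Pcsk2. The acinar covariate gave 1147 genes called in females, Pcsk1n 0.060 there, and a sex difference of 0.022 for Cpe. RPM gave Cpe 0.0019 and Furin 0.46 in females and Scg5 -0.39 in males. A fit of all 12 libraries called 2408 genes in females and 4396 in males. Gcg changed sign in males with edgeR (-0.047), DESeq2 (-0.037) and the acinar covariate (-0.032), and in females with quantile scaling (0.56), the covariate (0.12) and RPM (0.031). The cause was not tested for any of these.

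Same-numbered libraries did not deviate together in females (correlations -0.04, -0.28 and -0.13) and barely in males (0.12, 0.01 and 0.15). These values show no pairing by number, and so few correlations cannot exclude one. The numbers are those of the sample titles. The submitters' library codes number some libraries otherwise, and pairing by those codes was not tested. The replicate block gave 3209 genes in females and 2062 in males and took Pcsk1n in males to -0.82 (adjusted p 0.0532); no other member's call changed.

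With 1 library left out, 1839 to 3770 genes were called in females (2085 without control 2, 2408 without knockout 1, 1839 without knockout 2) and 828 to 2307 in males (1411 without control 3, 828 without knockout 1), and 2 to 3 and 2 to 4 members. The log2 ranges in females and males were -1.46 to -1.31 and -1.49 to -1.07 for Pcsk1, -0.96 to -0.85 and -1.17 to -0.83 for Pam, -0.39 to -0.10 and -1.04 to -0.70 for Pcsk1n, -0.37 to -0.22 and -0.57 to -0.43 for Scg5, -0.25 to -0.15 and -0.32 to -0.16 for Cpe, 0.23 to 0.31 and -0.052 to 0.21 for Furin, -0.011 to 0.12 and 0.00 to 0.21 for Pcsk2, and -0.41 to 0.23 and -0.17 to 0.27 for Gcg. Sex differences ran from -0.11 to 0.32 for Pcsk1, -0.28 to 0.061 for Pam, -0.11 to 0.044 for Cpe and -0.044 to 0.16 for Pcsk2.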
